A study of Mus musculus with 36 samples.

Results

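MAP kinase phosphatases are dual-specificity phosphatases that remove the activating phosphates from ERK, JNK and p38, and the 8 described here are Dusp1, Dusp2, Dusp4, Dusp5, Dusp6, Dusp8, Dusp10 and Dusp16. They were taken by gene symbol from the annotation of both expression tables. All 8 of them were listed among the 15385 genes of the microglial table, and 7 among the 14551 genes of the astrocyte table, where Dusp2 was not analysed. Primary glia of C57BL/6 pups a few days old were grown as mixed cultures, microglia were taken by CD11b selection, and astrocytes were selected from the cells left over. Polyadenylated RNA was sequenced after 4 h of treatment, from 4 replicates of each of 6 microglial groups (24 libraries) and 3 replicates of each of 4 astrocyte groups (12 libraries). The groups were vehicle (DMSO), Nec-1s alone, TNF with 5z-7 (written T/5z, microglia only), TNF with Smac mimetic and zVAD (T/S/Z), and each of these stimuli combined with the inhibitor, abbreviated T/5z/N (microglia only) and T/S/Z/N. All cells were wild type. Brains were pooled at harvest and the labels call the replicates biological, without saying which animals gave which replicate.

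5z-7 inhibits TAK1, a MAP kinase kinase kinase that relays TNF receptor signals to JNK, p38 and NF-kappaB. Smac mimetics remove the cIAP ubiquitin ligases, zVAD blocks caspases, and either combination with TNF leaves the RIPK1 kinase free to act, while Nec-1s inhibits that kinase. Most MAP kinase phosphatases are themselves transcribed in response to MAP kinase activity and so act as negative feedback. Dusp1, Dusp2, Dusp4 and Dusp5 are nuclear and inducible, Dusp6 is cytoplasmic and selective for ERK, and Dusp8, Dusp10 and Dusp16 act mainly on JNK and p38. In microglia and macrophages Dusp1 is best known as a brake on p38-driven cytokine production.

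The genes lie apart in the mouse genome (GRCm38, microglial gene models): Dusp1 at chr17:26505590-26508519, Dusp2 at chr2:127336159-127338376, Dusp4 at chr8:34807297-34819894, Dusp5 at chr19:53529109-53542431, Dusp6 at chr10:99263231-99267489, Dusp8 at chr7:142079490-142095272, Dusp10 at chr1:184034381-184075636 and Dusp16 at chr6:134715468-134792625. Dusp1, Dusp8 and Dusp16 are on the minus strand and the other five on the plus strand. The astrocyte table used longer models for some of them, and its Dusp1 reached from 26505590 to 26562128, with 3311 exonic bases in place of 1990. In GENCODE M21 the span of that longer Dusp1 model overlaps a processed pseudogene and a sense-intronic transcript of its own strand, and the pseudogene Gm8225 and Ergic1 on the opposite strand, while Dusp5, Dusp8, Dusp10 and Dusp16 each overlap 1 gene of the opposite strand. No strand setting was given for the counting, so reads of those partners could not be told apart from the members' own, and the astrocyte annotation marks these 5 genes as confounded (the microglial one only Dusp16).

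Promoters are shown for Dusp1, Dusp5 and Dusp16, which T/S/Z raised and Nec-1s lowered in microglia, and for Dusp8, whose levels in those groups had the same order but are a description only (Dusp4 has no entry in the promoter table used). Dusp16 alone of these 4 also rose under T/5z. RefSeq promoters on GRCm38.p6 matched 7 of the 8 members, and each window ends just before the more upstream of the RefSeq start and the start in the microglial gene model. The stretches are chr17:26508520-26508722 (minus strand), chr19:53528895-53529108 (plus), chr7:142095285-142095534 (minus) and chr6:134792629-134792878 (minus). Capitals mark the letters TGACG on either strand, which is the core of the cyclic AMP response element and part of the whole element TGACGTCA, and in Dusp5 also 2 adjoining CArG boxes, the element bound by serum response factor.
Dusp1: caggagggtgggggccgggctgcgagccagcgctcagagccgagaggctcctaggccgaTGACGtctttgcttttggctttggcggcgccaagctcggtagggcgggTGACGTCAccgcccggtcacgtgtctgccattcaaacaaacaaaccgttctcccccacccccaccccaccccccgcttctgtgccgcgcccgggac
Dusp5: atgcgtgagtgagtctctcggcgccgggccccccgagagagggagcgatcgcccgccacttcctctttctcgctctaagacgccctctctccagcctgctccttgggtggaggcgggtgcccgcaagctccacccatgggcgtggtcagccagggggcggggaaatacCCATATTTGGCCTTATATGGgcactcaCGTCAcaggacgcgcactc
Dusp8: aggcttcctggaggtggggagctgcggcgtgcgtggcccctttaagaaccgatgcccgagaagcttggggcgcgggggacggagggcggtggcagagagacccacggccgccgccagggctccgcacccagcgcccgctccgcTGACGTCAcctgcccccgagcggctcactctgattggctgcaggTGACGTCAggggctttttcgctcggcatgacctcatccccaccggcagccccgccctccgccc
Dusp16: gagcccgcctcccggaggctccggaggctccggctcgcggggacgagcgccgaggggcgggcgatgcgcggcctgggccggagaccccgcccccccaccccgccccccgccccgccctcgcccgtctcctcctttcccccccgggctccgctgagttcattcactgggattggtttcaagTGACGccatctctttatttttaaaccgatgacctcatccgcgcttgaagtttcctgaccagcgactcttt
TGACG stood in these 4 windows and in none of the other 3 searched (Dusp2, Dusp6, Dusp10). Dusp10, which was not tested in microglia, had the same order of levels as Dusp8. Its T/S/Z libraries lay above all those of DMSO and of T/S/Z/N. The presence of TGACG therefore did not separate the members with this order from the rest. It stood in 17.8% of all 32851 RefSeq promoter windows of 250 bases. The whole TGACGTCA was found once in Dusp1 and 2 times in Dusp8, against 1.55% of all promoters, and the CArG box only in Dusp5 among the 7, against 1.47%. An AP-1 site (TGANTCA) and a kappaB site were found in none of the 7 windows, against 6.75% and 3.9% of all promoters. These matches are letters in a short window, chosen for search with the expression values known, and describe no binding.

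Values below are the deposited log2(FPKM + 1). FPKM is scaled by gene length and by each library's upper quartile, so levels of different genes can be set side by side within a table, but the 2 tables were normalized separately. A change is a difference on that scale with its standard error (SE) from limma, paired by replicate number, and a gene is said to have risen or fallen where the Benjamini-Hochberg adjusted p was under 0.05 over all genes tested and the fold change was over 1.5, which is 0.585 on the log2 scale. In microglia 7 members entered the tests. Dusp10 was under the expression minimum, and Dusp8 passed it only through its 4 T/S/Z libraries, so a change in Dusp8 under T/S/Z was in part set by that filter. In bulk RNA, fewer cells of a type and less RNA per cell cannot be told apart. The microglial values of each gene had been brought to the same mean in every replicate (the largest difference between replicate means was 8.33e-05). Differences between treatments within a replicate are not altered by this. By construction, though, a library's deviation from its group mean is offset in the other groups of the same replicate. The SDs below do not hold the replicate differences that were removed.

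The libraries held the labelled cells. The 15 microglial markers summed to between 12266 and 14987 FPKM in every microglial library, although P2ry12 and Tmem119, markers of resting microglia, averaged only 4.27 and 9.04 FPKM under DMSO. In the astrocyte table the same 15 genes summed to between 132 and 141 FPKM under DMSO and between 85.3 and 91.6 under T/S/Z, and the 9 astrocyte markers summed to between 2924 and 3404 FPKM over all 12 libraries.

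In resting microglia the members spanned a wide range of levels. Under DMSO Dusp1 was the most abundant at 5.35 ± 0.058 (mean ± SD, n = 4), followed by Dusp6 at 3.88 ± 0.35, Dusp5 at 2.50 ± 0.097, Dusp16 at 2.13 ± 0.17, Dusp4 at 2.09 ± 0.066, Dusp2 at 1.41 ± 0.32, Dusp10 at 0.62 ± 0.083 and Dusp8 at 0.20 ± 0.11. Dusp16 and Dusp4 were within their spread of each other, and the other neighbours in this order had ranges that did not overlap. Nec-1s alone moved none of the 7 tested members past the thresholds, where 0% of all 10524 genes were called. Their changes lay between -0.12 and 0.08, and the lowest adjusted p was 0.602 (Dusp1). At an unadjusted p under 0.05, 892 genes passed, none of them a member.

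Microglial counts are given over the 6 members that passed the minimum in every group, which leaves out Dusp8. T/S/Z raised 5 of these 6 and lowered Dusp6, so that all 6 were called, where 29.6% of all genes were. T/5z raised Dusp2, Dusp4 and Dusp16 and lowered Dusp6, 4 of 6 against 24.4% of all genes. The median change of the 6 was 2.04 under T/S/Z and 0.60 under T/5z, beside -0.08 and -0.06 over all genes. Between the stimuli Dusp1, Dusp4 and Dusp5 were higher under T/S/Z and Dusp2 was higher under T/5z.

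**Figure D1:**
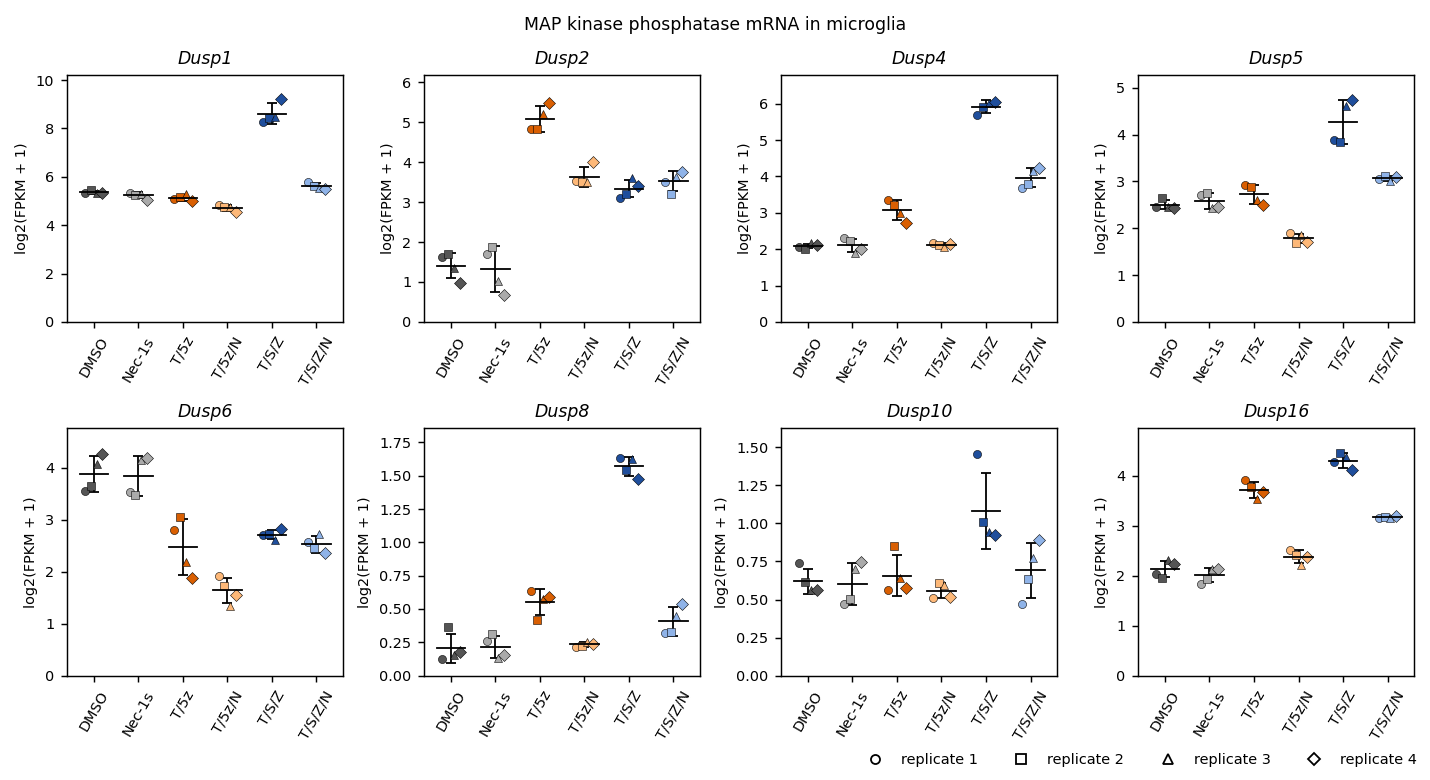
Level of each of the 8 phosphatase mRNAs in the 24 microglial libraries, as log2(FPKM + 1) by treatment. Symbols are replicates 1 to 4, the bar is the mean and the whiskers are the SD over 4 libraries. Dusp1, Dusp4, Dusp5, Dusp8 and Dusp16 were highest under T/S/Z, Dusp2 was highest under T/5z, and Dusp6 was highest in DMSO and Nec-1s libraries.

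Dusp1, which acts on p38, JNK and ERK, changed most between the stimuli. Its 4 DMSO libraries read 5.31, 5.44, 5.32 and 5.35, the T/5z libraries 5.10, 5.15, 5.30 and 4.99, and the T/S/Z libraries 8.28, 8.45, 8.46 and 9.24 (replicates 1 to 4). The T/S/Z libraries stood far above all others, and those of T/5z lay just under the vehicle. In mean FPKM this was 39.9 under DMSO, 34.3 under T/5z and 403 under T/S/Z. The change was 3.25 under T/S/Z (SE 0.14, adjusted p = 1.04e-06) and -0.22 under T/5z (SE 0.064, adjusted p = 0.0212), the latter under the fold minimum. The direct comparison of T/S/Z with T/5z gave 3.47 (SE 0.17, adjusted p = 1.93e-05).

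Dusp1 returned almost to the vehicle level when Nec-1s was added to T/S/Z. The T/S/Z/N libraries read 5.79, 5.63, 5.55 and 5.49, all below every T/S/Z library and all slightly above every DMSO library. With Nec-1s it fell by 2.99 (SE 0.17, adjusted p = 1.22e-05), which is 92.0% of the rise. What was left over DMSO was 0.26 (SE 0.067, adjusted p = 0.0154), under the fold minimum. After T/5z the effect of Nec-1s was -0.41 (SE 0.054, adjusted p = 0.000525), again under it, but T/5z/N differed from DMSO by -0.63 (SE 0.065, adjusted p = 0.000119). That last call was lost without replicate 4, where the change was -0.57, with 5 added before the log (-0.56) and with a fold minimum of 2.

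Dusp2, an inducible phosphatase of haematopoietic cells, behaved the other way round. Its DMSO libraries read 1.62, 1.69, 1.35 and 0.98 and its T/5z libraries 4.82, 4.84, 5.20 and 5.49, with 3.11, 3.21, 3.59 and 3.40 under T/S/Z. All 8 stimulated libraries were above all DMSO libraries, and those of T/5z were above those of T/S/Z. It rose by 3.67 under T/5z (SE 0.22, adjusted p = 1.12e-05) and by 1.92 under T/S/Z (SE 0.17, adjusted p = 3.12e-05), and T/S/Z differed from T/5z by -1.76 (SE 0.088, adjusted p = 1.93e-05). 

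Nec-1s lowered Dusp2 after T/5z and not after T/S/Z. The T/5z/N libraries read 3.53, 3.49, 3.51 and 4.01, below all T/5z libraries, and Dusp2 fell by 1.45 (SE 0.068, adjusted p = 3.18e-06), 39.4% of the rise. With T/S/Z/N the libraries read 3.51, 3.20, 3.64 and 3.76, overlapping those of T/S/Z, and the change was 0.20 (95% interval 0.01 to 0.38, adjusted p = 0.0687). In the presence of Nec-1s the difference between the stimuli in Dusp2, T/S/Z/N minus T/5z/N, was -0.11 (95% interval -0.28 to 0.06, adjusted p = 0.299). Dusp2 stayed above DMSO in both, by 2.23 (T/5z/N, SE 0.18) and 2.11 (T/S/Z/N, SE 0.18).

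Dusp4, a nuclear phosphatase of ERK and JNK, had the largest rise under T/S/Z of the members. From 2.06, 2.01, 2.17 and 2.11 under DMSO it went to 5.69, 5.92, 6.03 and 6.05 under T/S/Z, and to 3.36, 3.21, 2.98 and 2.72 under T/5z. The 3 groups did not overlap, with T/S/Z far above the rest. The rise was 3.84 under T/S/Z (SE 0.07, adjusted p = 4.32e-08) and 0.99 under T/5z (SE 0.12, adjusted p = 0.000364), and T/S/Z exceeded T/5z by 2.85 (SE 0.15, adjusted p = 2.01e-05).

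Nec-1s brought Dusp4 back to the vehicle level after T/5z but only part of the way after T/S/Z. The T/5z/N libraries read 2.18, 2.11, 2.05 and 2.15, within 0.04 of DMSO on average (95% interval -0.13 to 0.21), and Dusp4 fell by 0.95 (SE 0.098, adjusted p = 0.000147). That call was lost with 5 added before the log (-0.57), and with a fold minimum of 2 both it and the T/5z rise were lost. The T/S/Z/N libraries read 3.68, 3.80, 4.15 and 4.24, between those of DMSO and T/S/Z without overlap. There it fell by 1.96 (SE 0.058, adjusted p = 7.52e-07), 51.0% of the rise, and 1.88 over DMSO remained (SE 0.092, adjusted p = 4.92e-06).

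Dusp5, a nuclear phosphatase specific for ERK, rose only under T/S/Z of the 2 stimuli. Its DMSO libraries read 2.46, 2.65, 2.46 and 2.44, its T/S/Z libraries 3.88, 3.84, 4.60 and 4.74, and its T/5z libraries 2.92, 2.88, 2.60 and 2.51. T/S/Z lay above all others, with replicates 3 and 4 higher than 1 and 2, and T/5z overlapped DMSO. The change was 1.76 under T/S/Z (SE 0.18, adjusted p = 7.01e-05) and 0.22 under T/5z (SE 0.079, adjusted p = 0.0424, under the fold minimum), and T/S/Z exceeded T/5z by 1.54 (SE 0.22, adjusted p = 0.00176), a call that was lost with ordinary per-gene variance in place of the moderated one (adjusted p = 0.0675). 

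Nec-1s lowered Dusp5 after both stimuli. With T/S/Z/N it read 3.06, 3.12, 3.00 and 3.09, so that it fell by 1.20 (SE 0.16, adjusted p = 0.000567), 67.9% of the rise. The remainder over DMSO, 0.57 (SE 0.065, adjusted p = 0.000307), was just under the fold minimum and passed it under 4 of the alternative settings that kept this minimum. With T/5z/N it read 1.90, 1.69, 1.85 and 1.71, below every DMSO library. Against T/5z it fell by 0.94 (SE 0.085, adjusted p = 7.3e-05), and against DMSO the change was -0.72 (SE 0.084, adjusted p = 0.000248). Both calls were lost with 5 added before the log (-0.51 and -0.38) and with a fold minimum of 2.

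Dusp6, the cytoplasmic ERK phosphatase and a common readout of ERK activity, was the member that fell. Its DMSO libraries read 3.54, 3.64, 4.08 and 4.26, its T/5z libraries 2.80, 3.05, 2.18 and 1.88, and its T/S/Z libraries 2.71, 2.73, 2.60 and 2.82. Both stimuli lay below every DMSO library, and replicates 3 and 4 were high under DMSO and low under T/5z. The change was -1.41 under T/5z (SE 0.29, adjusted p = 0.00473), with single pairs from -2.38 to -0.59, and -1.17 under T/S/Z (SE 0.12, adjusted p = 8.33e-05). The stimuli did not differ detectably (T/S/Z minus T/5z 0.24, 95% interval -0.21 to 0.69, adjusted p = 0.357).

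Nec-1s did not bring Dusp6 back. After T/5z it read 1.92, 1.72, 1.35 and 1.56, lower in each of the 4 pairs although the groups overlapped, and fell by 0.84 (SE 0.14, adjusted p = 0.00167), and T/5z/N differed from DMSO by -2.24 (SE 0.18, adjusted p = 3.24e-05). After T/S/Z it read 2.57, 2.45, 2.73 and 2.36, overlapping T/S/Z, with a change of -0.19 (95% interval -0.41 to 0.03, adjusted p = 0.118) and a difference from DMSO of -1.36 (SE 0.14, adjusted p = 0.000157). Under Nec-1s, Dusp6 was higher with T/S/Z than with 5z-7 by 0.89 (SE 0.12, adjusted p = 0.000911). With ordinary per-gene variance the calls of Dusp6 for T/5z, for Nec-1s after T/5z and for this last difference were lost (adjusted p = 0.0808, 0.0722 and 0.0799), and the last 2 were also lost with 5 added before the log (-0.44 and 0.45) or a fold minimum of 2.

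Dusp16, a phosphatase of JNK and p38, was the one tested member of the JNK and p38 group that rose under both stimuli. It read 2.03, 1.96, 2.32 and 2.24 under DMSO, 3.92, 3.77, 3.54 and 3.67 under T/5z, and 4.28, 4.46, 4.38 and 4.11 under T/S/Z. The groups did not overlap. The rises were 1.59 (T/5z, SE 0.12, adjusted p = 3.06e-05) and 2.17 (T/S/Z, SE 0.1, adjusted p = 1.43e-06). The difference between the stimuli, 0.58 (SE 0.088, adjusted p = 0.00209), was just under the fold minimum. It passed without replicate 1 (0.66) or replicate 4 (0.63), with 0.5 added before the log (0.60) and with each library centred on its median (0.61).

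Of the rise in Dusp16, Nec-1s took back 84.5% in T/5z-treated cells and 52.1% when T/S/Z was given. The T/5z/N libraries read 2.51, 2.42, 2.21 and 2.38 and overlapped DMSO, and the T/S/Z/N libraries, 3.16, 3.18, 3.15 and 3.21, did not. The changes were -1.34 (SE 0.052, adjusted p = 1.25e-06) and -1.13 (SE 0.068, adjusted p = 1.51e-05). Over DMSO 0.25 was left with T/5z/N (adjusted p = 0.104) and 1.04 with T/S/Z/N (SE 0.082, adjusted p = 4.32e-05). Dusp16 is a gene that the microglial annotation marks as confounded.

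Dusp8, another JNK and p38 phosphatase, was nearly silent outside T/S/Z. Its libraries read 0.13, 0.36, 0.15 and 0.17 under DMSO, 0.63, 0.42, 0.57 and 0.59 under T/5z, and 1.63, 1.54, 1.62 and 1.48 under T/S/Z. With T/S/Z/N they read 0.32, 0.32, 0.44 and 0.54. The T/S/Z group stood apart from all the others. Since Dusp8 passed the minimum only where it is high, its T/S/Z differences are given as a description. They were 1.37 against DMSO (SE 0.097), 1.02 against T/5z (SE 0.085), and -1.16 when Nec-1s was added (SE 0.092). Under T/5z the change was 0.35 (SE 0.12, adjusted p = 0.0385) and the effect of Nec-1s -0.32 (SE 0.1, adjusted p = 0.0317), both under the fold minimum. With 5 in place of 1 added before the log, they were 0.44, 0.35 and -0.39, all under the fold minimum.

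Dusp10, which also acts on JNK and p38, was not tested. It read 0.74, 0.61, 0.56 and 0.56 under DMSO and 1.46, 1.01, 0.95 and 0.93 under T/S/Z, so that the T/S/Z libraries lay above those of DMSO, with replicate 1 the highest. With T/S/Z/N it read 0.47, 0.64, 0.77 and 0.89. In replicate 4, whose microglial values had not been shifted, low values fell on whole multiples of 1 read: 76.0% to 78.4% of those worth up to about 5 reads were within 0.2 of a whole number, where an even spread gives 40%. On that scale Dusp8 stood on about 12.9 reads under DMSO and 180.3 under T/S/Z, and Dusp10 on 27.8 and 52.8.

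Markers of other cells moved along with these changes. The 9 astrocyte markers, 7 of which stayed under 1 FPKM in DMSO microglia, summed to 7.17 to 9.14 FPKM under DMSO, 12.1 to 22.2 under T/5z, 13.7 to 19.9 under T/S/Z, 8.15 to 8.95 under T/5z/N and 4.88 to 6.02 under T/S/Z/N. The 4 fibroblast and mural markers, of which Dcn and Pdgfrb stayed under 1 FPKM under DMSO, summed to 4.99 to 6.55 FPKM under DMSO, 9.64 to 15.8 under T/5z, 5.43 to 7.06 under T/5z/N, 3.68 to 6.10 under T/S/Z and 2.74 to 4.33 under T/S/Z/N. The 2 listed endothelial markers summed to 4.46 to 5.80 FPKM under DMSO and to at most 3.09 in the 4 groups given TNF. The part of these cells in the microglial values was not tested. In astrocytes, where the 9 astrocyte markers summed to between 2924 and 3101 FPKM under T/S/Z, Dusp8 had a mean of 5.44 FPKM, against 1.97 FPKM in T/S/Z microglia.

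**Figure D2:**
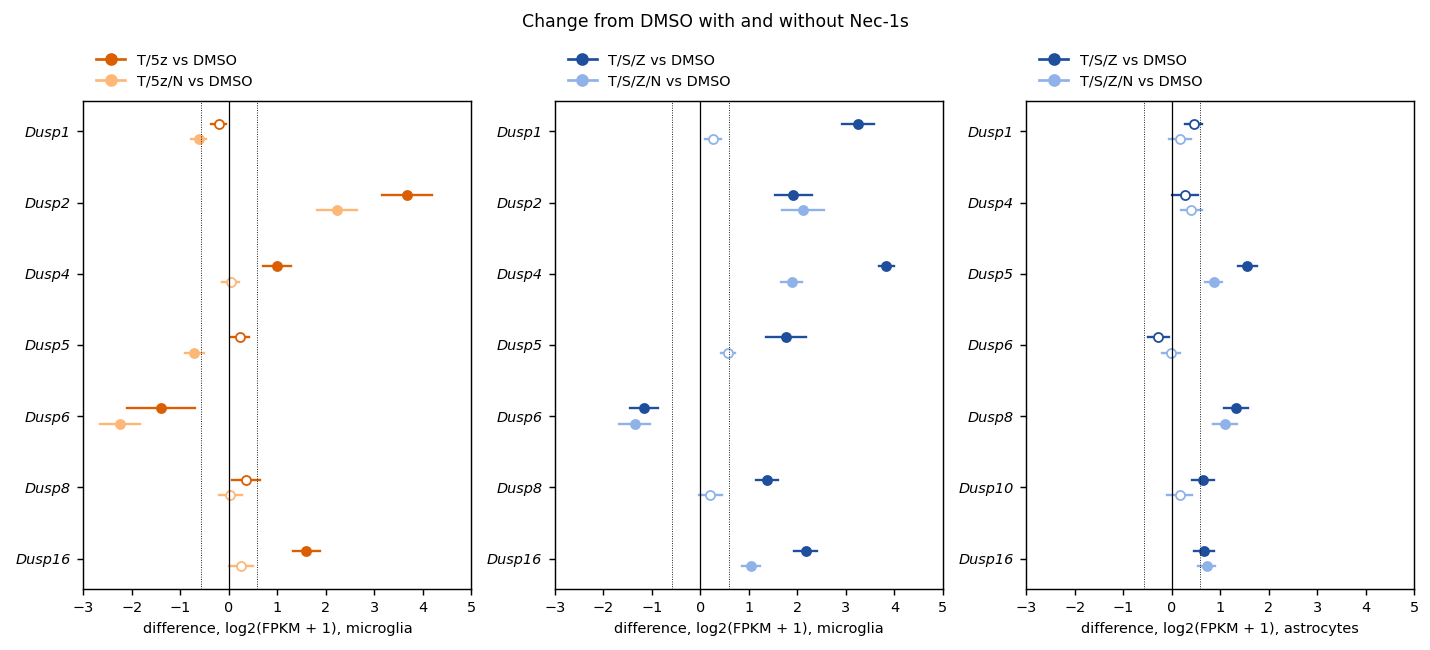
Change from DMSO of each tested phosphatase mRNA, in log2(FPKM + 1), without (dark) and with (pale) Nec-1s, for T/5z and T/S/Z in microglia and T/S/Z in astrocytes. Points are limma estimates from 4 (microglia) or 3 (astrocytes) pairs, lines are 95% intervals, filled points passed both thresholds, and dotted lines mark a fold of 1.5. In microglia Dusp1 went from 3.25 to 0.26 with Nec-1s, while Dusp2 stayed near 2 under T/S/Z.

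By these calls the rise of 3 of the 6 members was RIPK1-dependent after T/5z, that is, called against DMSO and called in the opposite direction with Nec-1s (Dusp2, Dusp4 and Dusp16, against 6.08% of all genes). After T/S/Z it was 4 of 6 (Dusp1, Dusp4, Dusp5 and Dusp16, against 9.28%). A change was retained with Nec-1s, that is, called in the same direction in the group with Nec-1s against DMSO, for Dusp2 and Dusp6 after T/5z (11.6% of all genes) and for Dusp2, Dusp4, Dusp6 and Dusp16 after T/S/Z (11.5%). Some genes were in both classes, since Nec-1s removed only part of the change. Counted by comparison, Nec-1s called 5 of 6 after T/5z, all lower, against 7.16% of all genes, and 4 of 6 after T/S/Z, all lower, against 12.1%. Against DMSO, 4 of 6 were called with T/5z/N (12.8% of genes) and 4 of 6 with T/S/Z/N (14.1%). T/S/Z against T/5z called 4 of 6 (9.83%), and T/S/Z/N against T/5z/N 5 of 6, all higher (3.38%).

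The effect of Nec-1s differed between the stimuli for 3 of the 6 members in the test of that difference, which called 6.47% of all genes. For Dusp1 the effect after T/S/Z minus that after T/5z was -2.58 on the log2 scale (SE 0.23, adjusted p = 3.27e-06). Dusp4 differed the same way, by -1.01 (SE 0.2, adjusted p = 0.00268). For Dusp2 the difference was 1.64 in the opposite direction (SE 0.13, adjusted p = 1.58e-06). In these 3 genes each of the 4 replicates went the way of the mean. For Dusp8 the value was -0.84 (SE 0.11), given as a description because of its filter, and it was under the minimum with 5 added before the log (-0.31) and with a fold minimum of 2. Dusp5 (-0.26, 95% interval -0.78 to 0.27), Dusp6 (0.65, 0.12 to 1.18, adjusted p = 0.0664) and Dusp16 (0.21, -0.02 to 0.45) did not pass.

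**Figure D3:**
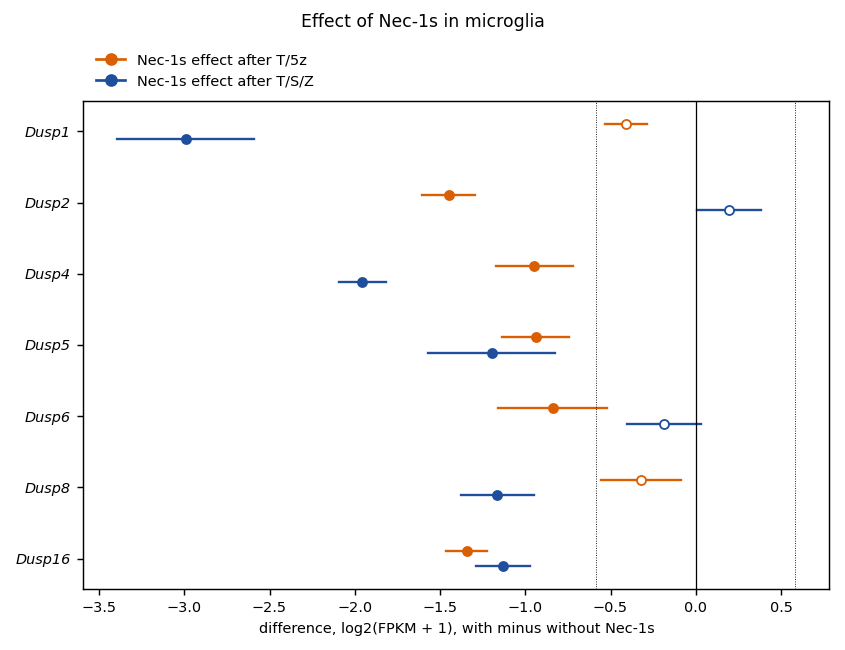
Effect of Nec-1s on each tested phosphatase mRNA in microglia, as the difference in log2(FPKM + 1) with minus without Nec-1s, for T/5z in orange and T/S/Z in blue. Points are limma estimates from 4 pairs, lines are 95% intervals, filled points passed both thresholds and dotted lines mark a fold of 1.5. The intervals lie apart for Dusp1, Dusp2, Dusp4, Dusp6 and Dusp8, of which Dusp6 did not pass the test of the difference and Dusp8 is a description, and overlap for Dusp5 and Dusp16.

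Across the 24 microglial libraries Dusp1, Dusp4, Dusp5 and Dusp8 had similar profiles, with Pearson correlations between 0.862 and 0.929 for their 6 pairs, which describe shared treatment groups and are not tests. Dusp2 and Dusp6 ran against each other (-0.795). Among all genes tested, the profile most like that of Dusp1 was Klf6 (0.985), that of Dusp2 was Ccl22 (0.990), that of Dusp4 was Eaf1 (0.984) and that of Dusp5 was Plaur (0.977). For Dusp6 it was Lbh (0.959), for Dusp8 it was Egr2 (0.981) and for Dusp16 it was Tnfsf9 (0.987).

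The other genes of the MAP kinase pathway were counted from lists, beside 24.4% of all genes called under T/5z, 29.6% under T/S/Z, and 7.16% and 12.1% for Nec-1s after each. Of the 14 immediate early genes, which MAP kinases induce within minutes, 13 were tested in microglia, and T/S/Z raised 10 and lowered 1 (Fos, -0.70), with Egr2 up by 5.72 (SE 0.3), Ier3 by 3.67 (SE 0.18) and Egr1 by 2.61 (SE 0.28). Nec-1s after T/S/Z lowered 11 and raised 1, and their median change was -2.08, beside 0.06 over all genes. T/5z raised 5 and lowered 2, with Ier3 up by 1.74 (SE 0.12) and Fosl2 changed by -1.41, and Nec-1s after T/5z lowered 5 of the 13. 

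Sprouty and Spred proteins are feedback inhibitors of the Ras and ERK branch. Of 4 tested Sprouty and Spred genes, 3 rose under T/5z and 3 under T/S/Z, and Nec-1s lowered 4 and 3, against the shares of all genes just given. Spred1, which holds back Ras, rose by 2.09 under T/5z (SE 0.087) and 2.08 under T/S/Z (SE 0.1). Dusp7, the one tested MAP kinase phosphatase outside the 8, was called lower under T/5z (-0.66, SE 0.2, adjusted p = 0.0248) and higher under T/S/Z (0.72, SE 0.1, adjusted p = 0.000402), and with Nec-1s after T/S/Z it fell by 1.19 (SE 0.076).

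MAP kinases are the substrates of these phosphatases. Most of the following counts are near the shares of all genes called and are no result about those lists. Of 7 tested MAP kinases, T/5z raised 2 and T/S/Z raised 1 and lowered 1. Mapk8, which encodes JNK1, rose under both, by 0.70 and 0.99, and Mapk14, which encodes p38 alpha, fell by 1.13 under T/S/Z and rose by 1.17 when Nec-1s was added. Among 15 MAP kinase kinase kinases and TAK1 partners, 1 rose and 4 fell under T/5z, 1 rose and 3 fell under T/S/Z, and Map3k1 was lower under both (-1.80 and -1.51). Map3k8, which activates the ERK cascade, was called lower under T/5z (-0.63) and rose by 0.87 under T/S/Z. With Nec-1s added to T/S/Z, Map3k8 fell by 1.73. Among the 10 kinases that MAP kinases activate, Mapkapk2, the p38 target MK2, rose by 1.84 under T/5z and 1.64 under T/S/Z, and Mknk2, which encodes another such kinase, changed by -2.36 and -1.34. T/5z called 4 of these 10 genes and T/S/Z 3. Of 7 MAP kinase kinases, none passed under T/5z and 2 passed under T/S/Z (Map2k1 up by 0.86, Map2k5 by -0.60). Atypical dual-specificity phosphatases fell where they were called, 2 of 7 under T/5z and 3 of 7 under T/S/Z, and of 6 tested phosphatases from other families that also act on MAP kinases (serine/threonine and tyrosine phosphatases), 1 and 2 rose, among them Ppm1b (0.91 and 0.66).

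In astrocytes 7 members were listed and all 7 were tested. Under DMSO, Dusp1 was again the most abundant at 4.67 ± 0.14 (SD, n = 3), followed by Dusp6 at 3.93 ± 0.12, Dusp5 at 3.64 ± 0.046, Dusp16 at 3.38 ± 0.024, Dusp10 at 2.46 ± 0.12, Dusp4 at 1.71 ± 0.077 and Dusp8 at 1.35 ± 0.055. No 2 neighbours in this order overlapped. Nec-1s alone called 0 of 7, where it called 0.0144% of all 13842 genes. At an unadjusted p under 0.05, Dusp5 (0.20) and Dusp6 (0.34) passed, among 790 genes.

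T/S/Z raised 4 of the 7 members in astrocytes and lowered none, where 15.4% of all genes were called. Dusp5 went from 3.68, 3.59 and 3.66 under DMSO to 5.24, 5.29 and 5.07, a rise of 1.55 (SE 0.085, adjusted p = 2.13e-05). Dusp8 went from 1.38, 1.29 and 1.39 to 2.81, 2.66 and 2.58, a rise of 1.33 (SE 0.11, adjusted p = 0.000119). In both genes every T/S/Z library lay well above every DMSO library. Dusp16 read 3.40, 3.39 and 3.35 under DMSO and 4.08, 3.95 and 4.11 under T/S/Z, a rise of 0.67 (SE 0.086, adjusted p = 0.00117). Dusp10 read 2.59, 2.35 and 2.43 and then 3.31, 3.02 and 2.94, a rise of 0.63 (SE 0.097, adjusted p = 0.0024) that was lost without replicate 1 (adjusted p = 0.0552). With ordinary per-gene variance all 4 calls were lost (adjusted p between 0.0589 and 0.0758), and with 5 added before the log those of Dusp16 (0.51) and Dusp10 (0.40) were. All 4 of these genes carry the mark of a confounded gene.

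Dusp1 and Dusp4, the members with the largest T/S/Z rises in microglia, stayed under the fold minimum in astrocytes. Dusp1 read 4.80, 4.68 and 4.52 under DMSO and 5.26, 5.04 and 5.05 under T/S/Z, without overlap, a change of 0.45 (95% interval 0.27 to 0.63, adjusted p = 0.00373). Dusp4 read 1.80, 1.69 and 1.65 and then 2.23, 1.80 and 1.92, a change of 0.27 (95% interval 0.01 to 0.53, adjusted p = 0.0915). Dusp6 read 3.80, 4.04 and 3.93 and then 3.68, 3.61 and 3.64, a change of -0.28 (95% interval -0.50 to -0.06, adjusted p = 0.0462). The tables were normalized apart, and by the labels their libraries came from different providers, while the methods of the study name 1 for both. Cell type and library preparation therefore cannot be told apart, and no test was run between the tables.

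**Figure D4:**
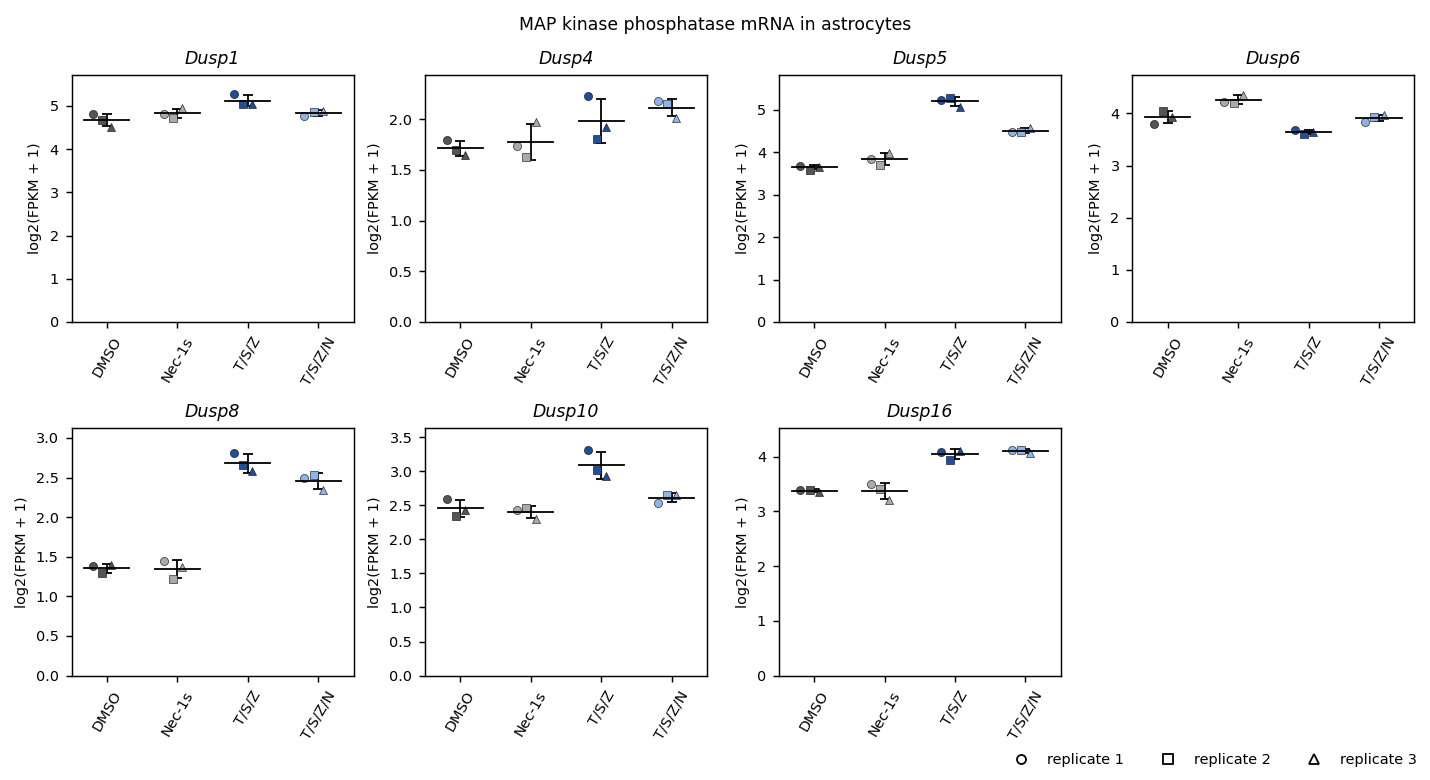
Level of the 7 phosphatase mRNAs listed in the astrocyte table, as log2(FPKM + 1) in the 12 libraries by treatment. Symbols are replicates 1 to 3, the bar is the mean and the whiskers are the SD over 3 libraries. Dusp5, Dusp8 and Dusp16 stayed above DMSO when Nec-1s was added to T/S/Z.

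Adding Nec-1s to T/S/Z in astrocytes called 1 of the 7 members, against 3.1% of all genes. Dusp5 read 4.48, 4.48 and 4.58 with T/S/Z/N, below each T/S/Z library and above each DMSO library. It fell by 0.69 (SE 0.096, adjusted p = 0.00939), 44.2% of the rise, and this call was lost without replicate 2 (-0.63, adjusted p = 0.089) and with ordinary per-gene variance (adjusted p = 0.256). Dusp10, at 2.54, 2.65 and 2.65, was below each T/S/Z library, with a change of -0.48 (95% interval -0.76 to -0.19, adjusted p = 0.058). Dusp8, at 2.50, 2.53 and 2.34, changed by -0.23 (95% interval -0.45 to 0.00, adjusted p = 0.168). Dusp16, at 4.12, 4.13 and 4.06, overlapped T/S/Z and changed by 0.06 (95% interval -0.16 to 0.27).

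The RIPK1-dependent class thus held Dusp5 alone of the 7 (2.54% of all genes), and the retained class held Dusp5, Dusp8 and Dusp16 (7.57%). Against DMSO, T/S/Z/N called these same 3 of 7, where 9.08% of all genes were called, with rises of 0.87 (Dusp5, SE 0.073, adjusted p = 0.000654), 1.10 (Dusp8, SE 0.1, adjusted p = 0.000935) and 0.72 (Dusp16, SE 0.073, adjusted p = 0.00133). The calls of Dusp5 and Dusp8 were lost with ordinary per-gene variance (adjusted p = 0.0707 and 0.0947), and those of Dusp8 (0.53) and Dusp16 (0.55) with 5 added before the log. Dusp7 rose by 2.02 under T/S/Z (SE 0.12, adjusted p = 2.79e-05), more than any of the 7, and with Nec-1s it fell by 1.01 (SE 0.14, adjusted p = 0.00835). Of 14 immediate early genes, T/S/Z raised 9 and lowered none (15.4% of all genes called), among them Junb by 3.15 (SE 0.21) and Ier3 by 3.10 (SE 0.069), and Nec-1s then lowered 2 (Ier3 and Fosl1) and raised 3 (Egr3, Egr1 and Fos), where 3.1% of all genes were called. Spry2 rose by 0.99 (SE 0.077) and fell by 0.60 (SE 0.090) with Nec-1s, and Map3k8 rose by 1.65 and fell by 0.77 with Nec-1s. Profiles most like those of the members over the 12 libraries were Zc3h12a for Dusp5 (Pearson correlation 0.996), S1pr3 for Dusp8 (0.997), Shisa3 for Dusp16 (0.986) and Spsb1 for Dusp10 (0.970).

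Markers of other cells in the astrocyte cultures also moved with treatment. The 15 microglial markers, of which Aif1, P2ry12, Tmem119 and Cx3cr1 stayed under 1 FPKM in every T/S/Z library, summed to 85.3 to 91.6 FPKM under T/S/Z and to 115 to 125 under T/S/Z/N. Microglial Dusp1 reached a mean of 403 FPKM under T/S/Z, where astrocyte Dusp1 had 33.7, and microglial Dusp5 had 19.0 where astrocyte Dusp5 had 35.8. The 4 fibroblast and mural markers summed to 495 to 505 FPKM under DMSO, 90.9 to 101 under T/S/Z and 399 to 405 under T/S/Z/N. Oligodendrocyte lineage markers summed to 100.2 to 117 FPKM under DMSO, 60.3 to 86.9 under T/S/Z and 67.9 to 71.9 under T/S/Z/N, with 127 to 128 under Nec-1s alone. Cdh5, the one endothelial marker analysed there, was at 12.0 to 12.6 FPKM under DMSO, 2.62 to 3.27 under T/S/Z and 8.66 to 9.86 under T/S/Z/N. The part of these cells in the astrocyte results was not tested.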

How the data were processed

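Microglial and astrocyte RNA was processed by the authors in OmicSoft Array Studio (version 10.1.1.3), and the deposited values are log2 of FPKM + 1, scaled to the upper quartile, in 1 table per cell type. The aligner, annotation and total read counts were not given in the sources used here. The labels name different library providers for the 2 cell types, strand-specific for astrocytes, where the methods of the study name 1. The 75th percentile lay between 4.11 and 4.16 in microglia and between 4.73 and 4.74 in astrocytes. Among microglial libraries, 18 of 24 (replicates 1 to 3) held values below 0 (up to 1438 genes), which follows from the equal replicate means and is not described in the methods. A shift of all libraries of 1 replicate by the same amount cancels in differences within replicates.

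Groups came from sample titles. Each comparison was fitted with limma 3.58.1 in R 4.3.3 (lmFit, eBayes with trend, 2-sided) on the libraries compared, with replicate number as a block, after the paired design of the study's methods. Genes with a value of at least 1 in at least 4 microglial or 3 astrocyte libraries were tested (10524 and 13842), with Benjamini-Hochberg adjustment over all of them and a fold minimum of 1.5. The procedure was tested on simulated data with known changes. The p-values measure the spread of treatment differences within replicate numbers, and not the differences between replicates. Members were taken by symbol, and they, the gene lists, motifs and tests were chosen with earlier results of these data known. All 8 members are named. From each pathway list up to 3 called genes per direction with the largest change could be named, and the profile most like each member was the highest Pearson correlation. A gene so named could also be given in other comparisons. Neuronal and endothelial markers were low in microglia (at most 1.95 and 6.95 FPKM summed), while the single listed gene of each list reached at most 15.6 and 12.7 FPKM in astrocytes, and fibroblast and oligodendrocyte lineage markers in microglia summed to at most 15.8 and 37.7 FPKM. Alternatives were another block, fit, filter, pseudocount, scaling, variance and fold minimum, and each replicate left out.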

Additional observations from a re-analysis of the deposited data

Results flagged for a closer look

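In 3 of the 48 combinations of a member and a microglial group of 4, 1 library stood apart by Dixon's criterion, and chance alone gives about 1 in 20 of such groups. Dusp2 in replicate 4 of T/5z/N was at 4.01, above the other 3 libraries at 3.49 to 3.53. Dusp5 in replicate 2 of DMSO was at 2.65, above the others at 2.44 to 2.46. Dusp10 in replicate 1 of T/S/Z was at 1.46, above the others at 0.93 to 1.01. Astrocyte groups of 3 were not examined in this way.

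In the limma test of a difference between the Nec-1s effects of the 2 stimuli, the value (T/S/Z minus T/5z) passed for Dusp1 (-2.58) and Dusp4 (-1.01), which were lowered more after T/S/Z, and for Dusp2 (1.64), which was lowered after T/5z. Each was the same in direction in all 4 replicates. Dusp8 (-0.84) was also flagged, but it was tested only through its T/S/Z libraries, so its value is a description.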

How the results depend on the processing

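Of the values of single called members under an alternative setting, 688 kept direction and side of the threshold, 44 kept direction but lost the call, and none reversed. Settings that changed only the block, fit, filter, variance or fold minimum leave the estimate as it was, so no reversal was possible under them. Members that a filter dropped are not counted. The study describes biological replicates in general as single animals or cells from separate litters, the labels do not tie the replicate numbers to litters, and same-numbered libraries of astrocytes correlated weakly in their deviations (median r 0.13, 0.031 and 0.0097 for the 3 numbers; in microglia equal replicate means force these down), so the block rests on the study's paired test. Without the replicate block no call of a member changed, with 4, 7, 5 and 5 of 7 called for T/5z, T/S/Z and Nec-1s after each. In microglia the replicate differences had already been taken out of the values, and dropping the block could not put them back. The unchanged microglial calls are therefore no test of the pairing. Microglial counts here include Dusp8, which was tested only through T/S/Z. With Nec-1s alone, 0 members were called under every alternative.

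Requiring a mean value of at least 3 left fewer members tested. The called members then fell to 2 (T/5z), 3 (T/S/Z), 2 and 2 (Nec-1s after each), 2 and 2 (with Nec-1s against DMSO), 3 and 2 (T/S/Z against T/5z without and with Nec-1s) and 2 (astrocytes, T/S/Z). The retained class then held 1 (T/5z) and 2 (T/S/Z), and the RIPK1-dependent class after T/S/Z 2. With 5 in place of 1 added before the log, 2 were called for Nec-1s after T/5z, 2 for T/5z/N against DMSO, 3 for T/S/Z/N against T/5z/N, and in astrocytes 2 (T/S/Z), 1 (T/S/Z/N against DMSO) and 1 (retained). With a fold minimum of 2, microglial counts were 2 for the same 3 comparisons, and astrocyte counts were 2 (T/S/Z), 0 (Nec-1s after T/S/Z), 1 (T/S/Z/N against DMSO), 0 (RIPK1-dependent) and 1 (retained). Without a fold minimum 7 were called for T/5z and the RIPK1-dependent class after T/5z held 5. For T/5z, 7140 of all 10524 genes had an unadjusted p under 0.05, so this count is no result about the members. Shares of all genes called were not computed for the alternative settings.

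With ordinary per-gene variance in place of the moderated one, astrocyte counts were 0 (T/S/Z), 0 (Nec-1s after T/S/Z), 1 (T/S/Z/N against DMSO), 0 (RIPK1-dependent) and 0 (retained), with adjusted p between 0.0589 and 0.0758 for the 4 T/S/Z rises, and the retained class after T/5z held 1, Dusp6 being lost (adjusted p = 0.0808, and 0.0722 for Nec-1s after T/5z), as was Dusp5 for T/S/Z against T/5z (0.0675). Leaving out each replicate in turn gave 0 to 1 for Nec-1s after T/S/Z in astrocytes and for the RIPK1-dependent class there, 3 to 4 for T/S/Z in astrocytes, and 3 to 4 for T/5z/N against DMSO. It gave 5 to 6 for T/S/Z against T/5z and 4 to 5 for T/S/Z/N against DMSO, the retained class after T/S/Z and the difference of the Nec-1s effects, where Dusp6 was gained without replicate 4 (0.91). Outside T/S/Z, Dusp8 and Dusp10 stood on at most 56.5 estimated reads in replicate 4 of microglia.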
